A study of Mus musculus with 6 samples.

Results

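Neurotrophins and their receptors were read out in RNA sequencing of hippocampus from 3 Ctcf conditional knockout (cKO) mice and 3 wild type (WT) mice. All animals were of the strain labelled C57/Bl, and the genotype labels are CTCF cko and wild type. The Cre line, the age and the sex are not given in the sources used here, and the series describes the animals of each genotype as biological replicates. CTCF, a DNA-binding protein with zinc fingers, anchors chromatin loops and acts at insulators, and the design asks how gene expression differs when it is depleted. Members were chosen by symbol: 3 ligand genes (Bdnf, Ntf3, Ntf5), the Trk receptor genes Ntrk2 and Ntrk3, the p75 receptor gene Ngfr and the sortilin family genes Sort1 and Sorcs3. These are 8 of the 24421 genes in the count table, and all 8 were among the 14916 genes that passed the expression filter.

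Neurotrophins are secreted proteins made as longer precursors, which proteases cut to the mature form. Mature neurotrophins bind Trk receptor tyrosine kinases, which signal through the Ras-MAPK, PI3K-Akt and phospholipase C routes, while precursors bind p75 together with a sortilin family receptor. In the hippocampus, BDNF acting on TrkB is best known for its part in synaptic plasticity, and transcription of Bdnf from several promoters responds to neuronal activity.

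Libraries held 14974750 to 23220455 counted reads. Ctcf had 24.1, 34.5 and 35.8 CPM (read counts scaled to the size of each library) in cKO replicates 1 to 3, against 64.3, 65.2 and 70.3 CPM in WT replicates 1 to 3 (log2 fold change -1.08, edgeR adjusted p = 0.0264). The libraries differed in markers of neighbouring tissue: the 8 striatal markers summed to 134 to 365 CPM in cKO and 622 to 3016 CPM in WT, highest in WT replicate 2 and lowest in cKO replicate 1. All 8 of these markers had non-overlapping groups, none was at 0 in any library, and edgeR called 0 of them where DESeq2 called 8. Choroid plexus markers summed to 978 to 8771 CPM in cKO and 7725 to 15576 CPM in WT, again lowest in cKO replicate 1 and highest in WT replicate 2. Ttr alone averaged 3398 CPM in cKO and 8325 CPM in WT. Oligodendrocyte markers had the same extremes, with sums of 10755 to 14136 CPM in cKO and 14048 to 18588 CPM in WT. All 9 had negative log2 fold changes, 4 had non-overlapping groups, and edgeR called 0. All 14 hippocampal neuron markers were detected in every library, with summed levels of 1136 to 1186 CPM in cKO and 1176 to 1548 CPM in WT. Pcp4 alone averaged 459 CPM in cKO and 660 CPM in WT. With each of the 14 markers weighted equally, as the mean deviation of log2 CPM, WT replicate 2 lay lowest, at -0.61. The values were 0.35 and 0.30 in WT replicates 1 and 3, and -0.03, 0.15 and -0.16 in cKO replicates 1 to 3. These markers did not move together: 8 had positive and 6 negative log2 fold changes, edgeR called 1 and DESeq2 called 5. The edgeR call was Wfs1, a marker of CA1 pyramidal neurons, with a mean of 48.8 CPM in cKO and 109.1 CPM in WT (log2 fold change -1.16, edgeR adjusted p = 0.00775). Fibcd1 and Spink8, also CA1 markers of that list, went the other way. Fibcd1 averaged 92.8 CPM in cKO and 41.2 CPM in WT, without overlap of the groups (log2 fold change 1.17, edgeR adjusted p = 0.142). Spink8 had a log2 fold change of 1.36, with overlapping groups (edgeR adjusted p = 0.175). Fold changes are given for all 6 libraries. For the 8 genes they are also given without WT replicate 2 and with the mean level of the striatal markers, which itself separates the genotypes, as a covariate.

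**Figure D1:**
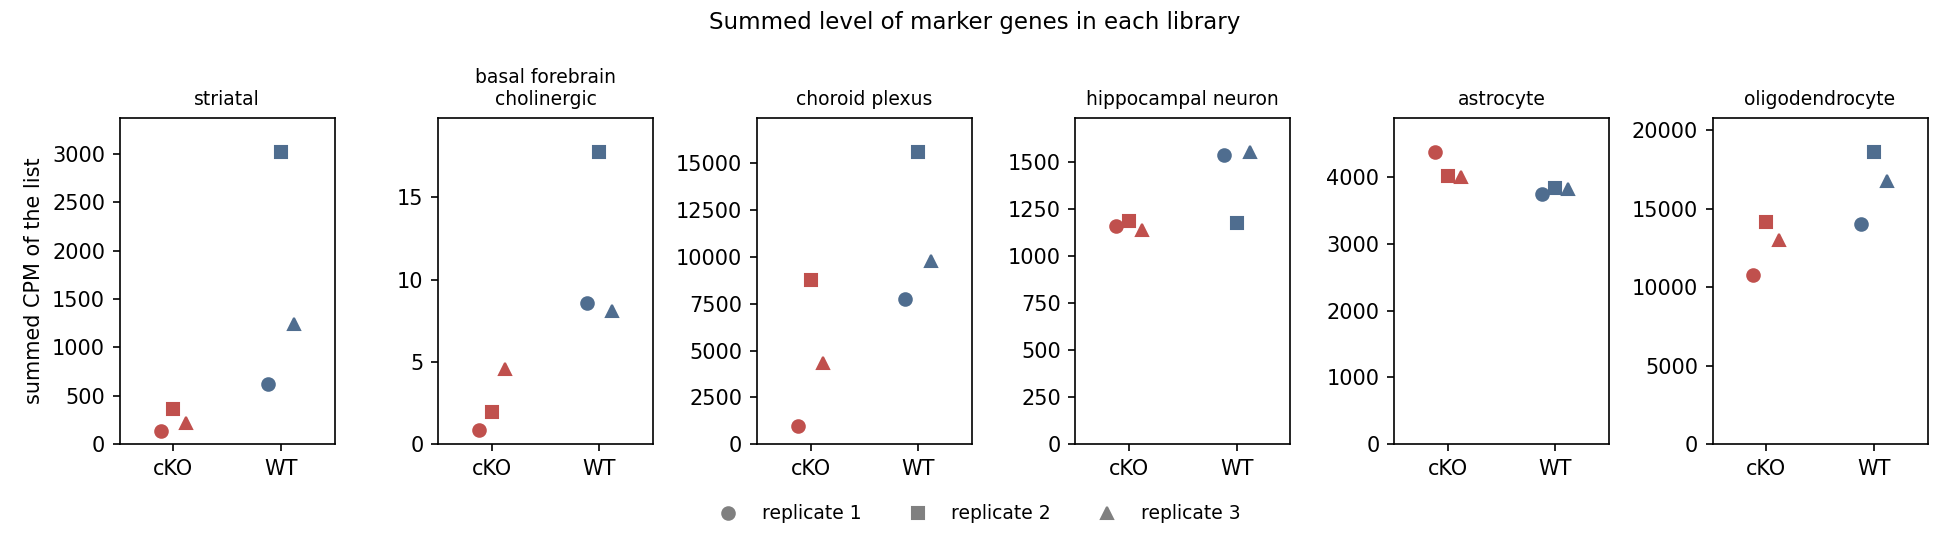
Summed CPM of 6 marker lists (vertical axes from 0), with 1 symbol per library, cKO in red left of WT in blue. The sums for striatal, cholinergic, choroid plexus and oligodendrocyte markers are highest in WT replicate 2 and lowest in cKO replicate 1.

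Bdnf carries 7 start windows in the RefSeq promoter table, more than any other gene of the set, so its start regions are shown first. Of the 8 genes, 5 had a window (250 bases before to 50 bases after a start, GRCm38.p6). Capitals mark matches, on either strand, to the letters of the cAMP response element core (TGACG), an AP-1 site (TGANTCA), an E-box (CACGTG) or the core of the CTCF motif. No matches overlapped each other, and the full cAMP response element (TGACGTCA) matched none of the windows of the 5 genes. The windows with a match were windows 2 and 3 of Bdnf and window 1 of Ntf3.
Bdnf window 2, chr2:109676782-109677081, plus strand: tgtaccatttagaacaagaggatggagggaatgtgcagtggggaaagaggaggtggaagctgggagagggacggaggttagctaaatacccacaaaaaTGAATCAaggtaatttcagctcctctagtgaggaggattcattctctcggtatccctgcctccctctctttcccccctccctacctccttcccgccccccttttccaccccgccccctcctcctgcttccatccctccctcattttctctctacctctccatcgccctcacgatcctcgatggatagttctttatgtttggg
Bdnf window 3, chr2:109692186-109692485, plus strand: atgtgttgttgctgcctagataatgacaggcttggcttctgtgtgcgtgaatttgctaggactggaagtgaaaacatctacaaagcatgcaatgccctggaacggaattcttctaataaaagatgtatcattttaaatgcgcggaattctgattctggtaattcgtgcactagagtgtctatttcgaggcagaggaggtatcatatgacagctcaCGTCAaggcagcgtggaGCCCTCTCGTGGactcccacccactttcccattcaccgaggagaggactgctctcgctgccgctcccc
Ntf3 window 1, chr6:126166695-126166994, minus strand: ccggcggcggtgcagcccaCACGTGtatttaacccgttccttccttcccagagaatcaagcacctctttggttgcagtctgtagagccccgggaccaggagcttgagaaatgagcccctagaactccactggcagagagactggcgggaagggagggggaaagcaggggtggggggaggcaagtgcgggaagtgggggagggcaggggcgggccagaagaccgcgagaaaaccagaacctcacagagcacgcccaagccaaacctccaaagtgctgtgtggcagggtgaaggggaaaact
Window 3 of Bdnf held a CTCF core match at bases 233 to 244 and a cAMP response element core at bases 216 to 220, counted from the 5′ end of the window. Among all 32851 windows of the table, 2.43% held a CTCF core match, 20.8% the cAMP response element core, 7.81% the AP-1 letters and 7.15% the E-box. These shares are per window, and a gene with several windows, such as Bdnf with 7, has more chances of a match. A match is a description of the sequence and no measure of binding, and the counts per gene do not tell which start was used.

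Bdnf, the main ligand of TrkB in hippocampus, had higher levels in every cKO library than in any WT library, but the difference did not pass the test over all genes. Bdnf (chromosome 2, 109674700 to 109727043, plus strand) had 38.9, 41.7 and 37.3 CPM in cKO replicates 1 to 3, against 29.3, 19.4 and 29.3 CPM in WT replicates 1 to 3. The cKO libraries lay close together, and WT replicate 2 lay below the other WT libraries. Means were 39.3 ± 2.20 CPM in cKO and 26.0 ± 5.74 CPM in WT (SD, n = 3 each), a 1.51-fold difference (log2 fold change 0.59, SE 0.16). The interval of that fold, without adjustment for the number of genes, was 1.16 to 1.96 (95%), and the adjusted p by edgeR's quasi-likelihood test was 0.119. DESeq2 gave nearly the same log2 fold change (0.59, SE 0.18) with an adjusted p of 0.0235, and the authors' deposited table listed Bdnf with an adjusted p of 0.0305. Without WT replicate 2 the log2 fold change was 0.42 (edgeR adjusted p = 0.0705), and with the striatal marker level as covariate it was 0.18 (edgeR adjusted p = 0.795). In whole tissue, a different number of cells of a type and a different amount of RNA per cell cannot be told apart. All 6 excitatory neuron markers had positive log2 fold changes (median 0.21), but 0 had non-overlapping groups and 0 were called by edgeR. The part of these cells in the level of Bdnf was not tested. An antisense gene, Gm45346, overlaps exons of Bdnf in GENCODE M21, as Gm12523 does for Sort1. Both were not analysed here, and without strand their reads cannot be told apart from those of Bdnf and Sort1.

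Ntf3 encodes neurotrophin-3, the preferred ligand of TrkC, and in rodent hippocampus it is made mainly by granule neurons of the dentate gyrus. Ntf3 had 7.69, 8.09 and 6.15 CPM in cKO replicates 1 to 3 and 5.96, 1.08 and 4.50 CPM in WT replicates 1 to 3. The groups did not overlap, but cKO replicate 3 and WT replicate 1 lay close together and WT replicate 2, with 17 reads, lay far below all others. The log2 fold change was 0.92 (SE 0.49, edgeR adjusted p = 0.337), and it was 0.48 without WT replicate 2 and -0.49 with the striatal covariate, neither past the test (edgeR adjusted p = 0.296 and 0.785). Dentate markers were also low in WT replicate 2 beside the other WT libraries. Prox1, a transcription factor of granule neurons, had 46.1, 46.2 and 42.8 CPM in cKO and 42.8, 17.3 and 42.8 CPM in WT. Dsp, a desmosome gene used as a granule cell marker, had 26.3, 26.8 and 21.6 CPM in cKO and 58.1, 10.3 and 58.6 CPM in WT. C1ql2, a secreted synaptic protein of granule neurons, had 21.3, 27.5 and 30.2 CPM in cKO and 109.7, 25.4 and 109.3 CPM in WT. Unlike Ntf3 and Prox1, Dsp and C1ql2 had negative log2 fold changes, -0.77 and -1.63 (edgeR adjusted p = 0.465 and 0.147). The part of dentate content in the level of Ntf3 was not tested.

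Ntf5, the mouse gene for neurotrophin-4 and a second ligand of TrkB, was near the limit of detection. It had 3, 9 and 11 reads in cKO replicates 1 to 3 and 10, 21 and 16 reads in WT replicates 1 to 3, or 0.186, 0.573 and 0.463 CPM in cKO against 0.662, 1.34 and 0.819 CPM in WT. The highest cKO library lay just below the lowest WT library. The log2 fold change was -1.17 (SE 0.47, edgeR adjusted p = 0.226), -0.85 without WT replicate 2, -0.86 without cKO replicate 1, and 0.38 with the striatal covariate.

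**Figure D2:**
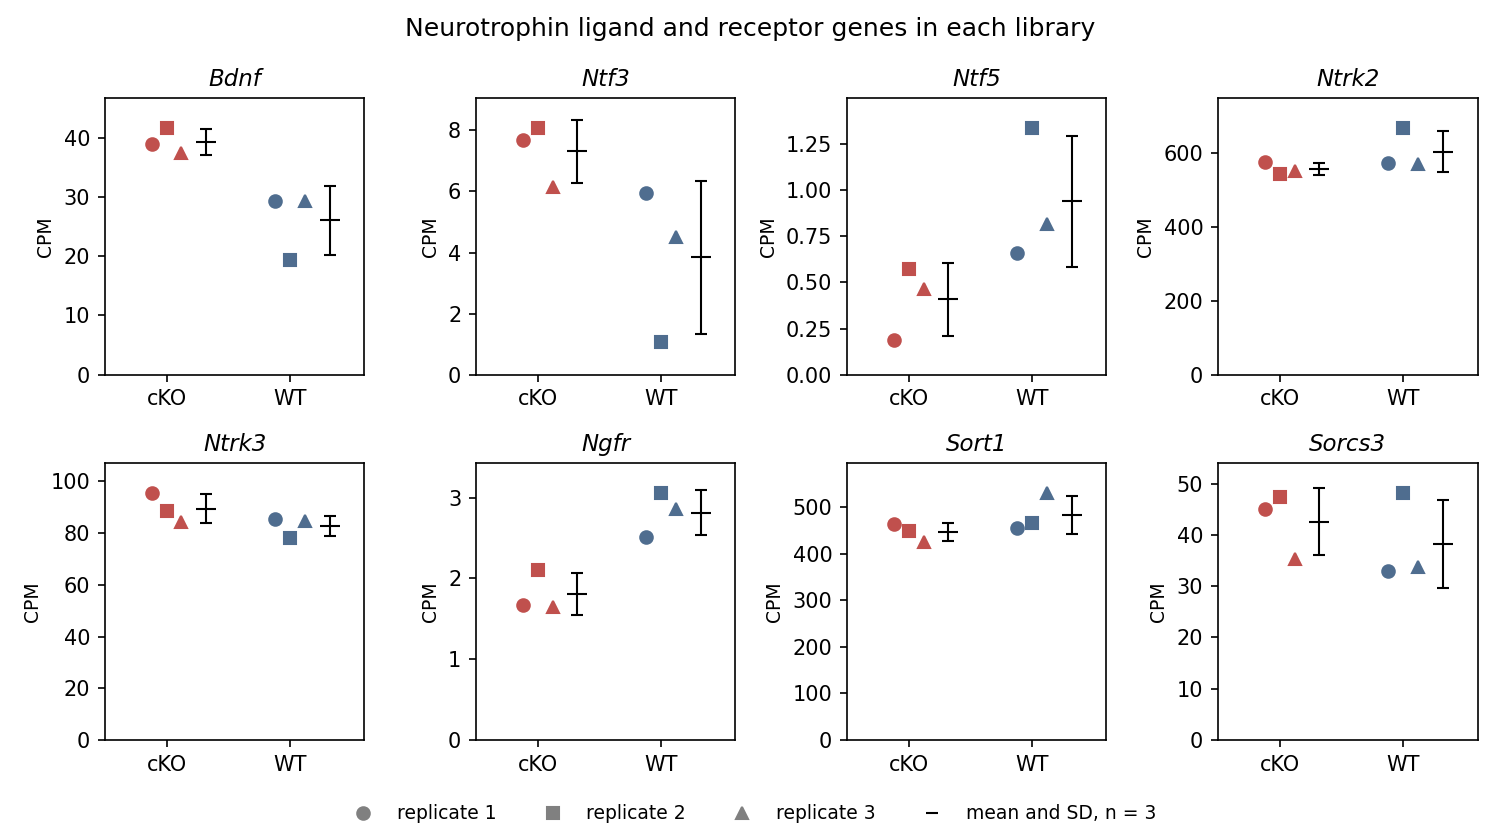
Level of each gene in CPM (vertical axes from 0), with 1 symbol per library, cKO in red and WT in blue, and the mean and SD of 3 libraries in black. Bdnf and Ntf3 lie higher in all 3 cKO libraries, Ntf5 and Ngfr lie lower, and Ntrk2, Ntrk3, Sort1 and Sorcs3 overlap.

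The Trk receptor genes showed small differences that lay within the spread of the libraries. Ntrk2 encodes TrkB, the receptor of BDNF and neurotrophin-4, whose truncated form without the kinase is abundant in astrocytes. The counts join all forms of a gene, so full-length and truncated receptors were not told apart. Ntrk2 (chromosome 13, 58806472 to 59133970, plus strand) had 575.7, 544.7 and 551.7 CPM in cKO, against 573.9, 669.3 and 569.7 CPM in WT. The groups overlapped, with WT replicate 2 above the rest. The fold was 0.922 with a 95% interval of 0.802 to 1.06 (edgeR adjusted p = 0.486). The log2 fold change was -0.12, and it was -0.037 without WT replicate 2 and 0.032 with the striatal covariate. Astrocyte markers had 6 of 9 positive log2 fold changes and none was called, with summed levels of 4006 to 4366 CPM in cKO and 3742 to 3832 CPM in WT. Most of these sums came from Slc1a2, with means of 2505 CPM in cKO and 2223 CPM in WT and overlapping groups. With each marker weighted equally, as the mean deviation of log2 CPM, the groups overlapped. These deviations were 0.035, -0.041 and 0.099 in cKO replicates 1 to 3, and 0.032, -0.148 and 0.024 in WT replicates 1 to 3.

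Ntrk3 encodes TrkC, the receptor of neurotrophin-3. Ntrk3 had 95.6, 88.6 and 84.3 CPM in cKO and 85.5, 78.1 and 84.6 CPM in WT, with overlapping groups. The fold was 1.08 with a 95% interval of 0.954 to 1.23 (edgeR adjusted p = 0.454). The log2 fold change was 0.11, and it was 0.072 without WT replicate 2 and -0.070 with the striatal covariate. The intervals of Ntrk2 and Ntrk3 over all 6 libraries lie inside a 1.5-fold change in either direction. The ratio of Ntrk2 to Ntrk3 reads, taken within a library, was 6.02, 6.15 and 6.54 in cKO and 6.71, 8.57 and 6.73 in WT. The ratio groups did not overlap, but cKO replicate 3 and WT replicate 1 differed by little, and no test was made of the ratio.

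Ngfr encodes p75, a receptor of all neurotrophins and of their precursors. In the adult forebrain it is best known from basal forebrain cholinergic neurons, which send axons to the hippocampus. Ngfr (chromosome 11, 95568818 to 95587698, minus strand) had 1.68, 2.10 and 1.64 CPM in cKO replicates 1 to 3, against 2.51, 3.06 and 2.87 CPM in WT replicates 1 to 3. All cKO libraries lay below all WT libraries in CPM, while the reads behind these values overlapped, at 27 to 39 in cKO and 38 to 56 in WT. The log2 fold change was -0.64 (SE 0.21), a fold of 0.64 with a 95% interval of 0.456 to 0.899 before adjustment, and it did not pass over all genes (edgeR adjusted p = 0.161). Without WT replicate 2 it was -0.58, and with the striatal covariate -0.26 (edgeR adjusted p = 0.291 and 0.787). Markers of basal forebrain cholinergic neurons had lower summed levels in cKO: 3 of 5 were tested, all 3 had negative log2 fold changes and non-overlapping groups, and none was called. The summed level of all 5 was 0.869 to 4.59 CPM in cKO and 8.09 to 17.7 CPM in WT. Chat, the enzyme that makes acetylcholine, had 0, 6 and 30 reads in cKO and 31, 77 and 39 reads in WT, Lhx8 had 0, 0 and 1 read in cKO and 1, 16 and 15 reads in WT, and Gbx1 had at most 5 reads in any library. The part of these cells in the level of Ngfr was not tested.

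Sortilin and SorCS3 belong to the VPS10 domain receptors, which sort cargo between the Golgi, endosomes and the cell surface, and sortilin joins p75 in binding precursors of neurotrophins. Sort1, the sortilin gene, had 463.9, 449.5 and 424.6 CPM in cKO and 454.0, 464.6 and 530.3 CPM in WT. The groups overlapped, with WT replicate 3 highest. The fold was 0.923 (95% interval 0.804 to 1.06, edgeR adjusted p = 0.487), and the log2 fold change of -0.12 was -0.14 both without WT replicate 2 and with the striatal covariate. Sorcs3, a sorting receptor of the postsynaptic density, had 45.1, 47.5 and 35.2 CPM in cKO and 33.0, 48.2 and 33.7 CPM in WT. Its groups overlapped too, since WT replicate 2 was the highest of all libraries (fold 1.11, 95% interval 0.835 to 1.48, edgeR adjusted p = 0.667). The log2 fold change of Sorcs3 was 0.15 over all libraries, 0.35 without WT replicate 2, 0.058 without WT replicate 1 and 0.63 with the striatal covariate, in no case past the test (edgeR adjusted p of 0.25, 0.894 and 0.48 in the last 3).

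The remaining VPS10 receptor genes, Sorl1, Sorcs1 and Sorcs2, were read from the same fit. Sorl1 encodes SorLA, a sorting receptor of the amyloid precursor protein that also carries TrkB. It had 177.8, 174.0 and 123.4 CPM in cKO and 99.1, 116.7 and 94.6 CPM in WT. All cKO libraries lay above all WT libraries, with cKO replicate 3 nearest to WT (log2 fold change 0.61, SE 0.15, edgeR adjusted p = 0.10). Sorcs2, a partner of p75 for precursors of neurotrophins, had 54.1, 52.0 and 53.1 CPM in cKO and 71.0, 67.6 and 63.8 CPM in WT. Its groups were narrow and did not overlap (log2 fold change -0.35, SE 0.07, edgeR adjusted p = 0.0649). Without WT replicate 2 the log2 fold changes were 0.71 for Sorl1 and -0.34 for Sorcs2, and with the striatal covariate 0.75 and -0.43, none past the test by edgeR. By DESeq2 the adjusted p was 0.00928 for Sorl1 and 0.00898 for Sorcs2. In the authors' deposited table it was 0.0122 for Sorl1 and 0.0117 for Sorcs2. Sorcs1 had 24.1, 25.6 and 26.5 CPM in cKO and 22.8, 40.3 and 26.6 CPM in WT, with WT replicate 2 apart. Its log2 fold change was -0.24, and 0.038 without that library.

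Across the 8 genes, edgeR called 0, against 1.51% of all genes tested. At an unadjusted p below 0.05 there were 3 (Bdnf, Ngfr and Ntf5), against 19.9% of all genes. DESeq2 called 1, Bdnf, against 5.84% of all genes with an adjusted p. The authors' deposited table likewise listed 1, Bdnf, against 4.06% of its 19428 genes with an adjusted p. Limma-voom called 0, against 1.33% of all genes tested. In 4 genes the groups did not overlap, 2 higher in cKO (Bdnf and Ntf3) and 2 lower (Ntf5 and Ngfr), against 27.0% of all genes tested. Of the 8 log2 fold changes 4 were positive and 4 negative. The ligand genes and Ngfr had the wider differences, and the abundant receptor genes Ntrk2, Ntrk3 and Sort1 had the narrowest intervals.

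**Figure D3:**
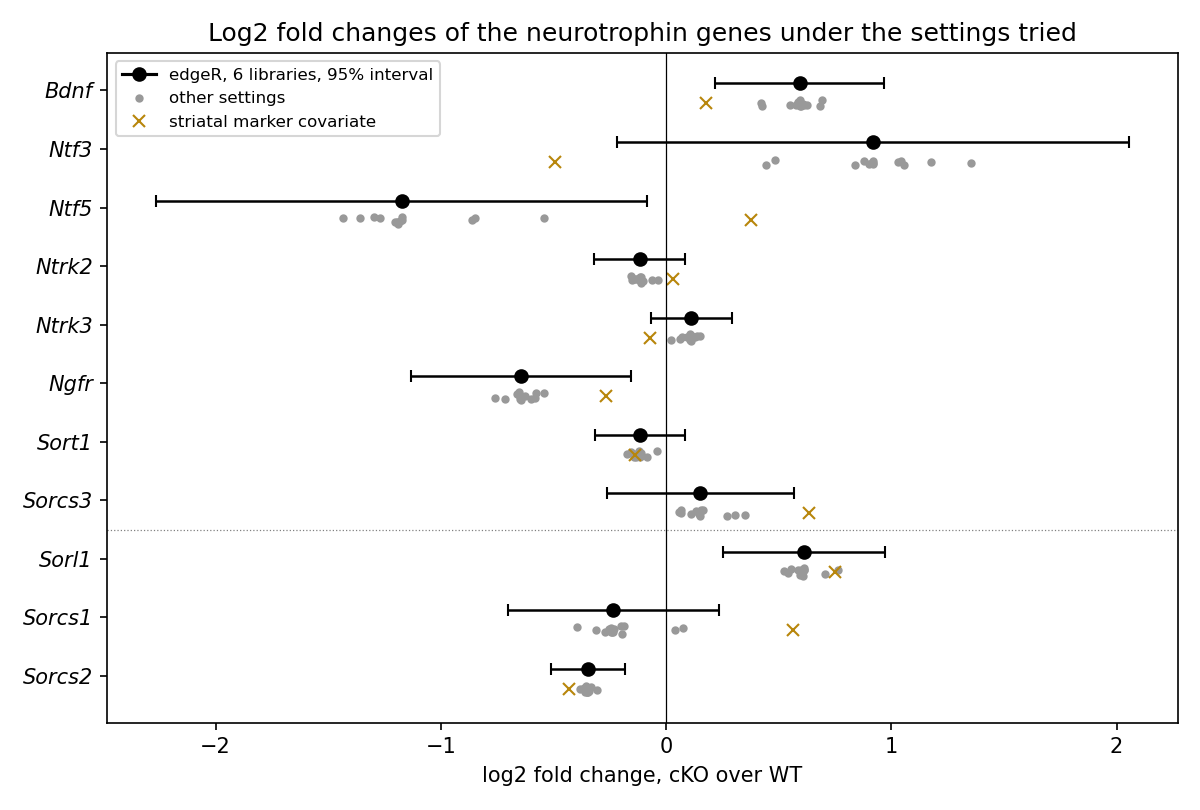
Log2 fold change of cKO over WT (horizontal axis) for the 8 genes and, under the dotted line, the other VPS10 receptor genes, with the edgeR estimate and its 95% interval in black and estimates under other settings in grey. The striatal covariate (ochre crosses) turns the direction of Ntf3, Ntf5, Ntrk2, Ntrk3 and Sorcs1, and leaves Bdnf at 0.18, Ngfr at -0.26 and Sorl1 at 0.75.

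Levels were compared between genes per kilobase of exon, the union of all exons of a gene in GENCODE M21. Sort1 stood highest, at 58.9 ± 2.63 CPM per kb in cKO and 63.8 ± 5.46 CPM per kb in WT (SD, n = 3 each). Ntrk2 followed with 28.9 ± 0.84 CPM per kb in cKO and 31.3 ± 2.92 CPM per kb in WT. Ntrk3 was lower per length than Ntrk2, with 2.97 ± 0.19 CPM per kb in cKO and 2.74 ± 0.13 CPM per kb in WT. Bdnf had 6.32 ± 0.35 CPM per kb in cKO and 4.18 ± 0.92 CPM per kb in WT, and Sorcs3 had 5.97 ± 0.91 CPM per kb in cKO and 5.37 ± 1.21 CPM per kb in WT. Bdnf and Sorcs3 overlapped within each genotype, so their order was not resolved. Ntf3 had 4.27 ± 0.60 CPM per kb in cKO, where it ranked above Ntrk3, and 2.24 ± 1.46 CPM per kb in WT, where it ranked under Ntrk3. In WT the libraries of Ntf3 overlapped those of Ntrk3 and of Bdnf, with 3.47 CPM per kb for Ntf3 in WT replicate 1 and 3.12 CPM per kb for Bdnf in WT replicate 2. Ngfr had 0.524 ± 0.074 CPM per kb in cKO and 0.816 ± 0.080 CPM per kb in WT, and Ntf5 was lowest at 0.154 ± 0.075 CPM per kb in cKO and 0.354 ± 0.134 CPM per kb in WT. With the length of the longest transcript in place of the exon union, Sort1 and Ntrk2 overlapped, at 65.2 and 63.7 CPM per kb in cKO and 70.7 and 69.1 CPM per kb in WT. The order of the other genes by mean was the same. Libraries of Ntf3 and Ntrk3 then overlapped in cKO too, with 4.15 CPM per kb for Ntf3 and 4.28 CPM per kb for Ntrk3 in cKO replicate 3. The length of the longest transcript was tried after the data were seen.

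**Figure D4:**
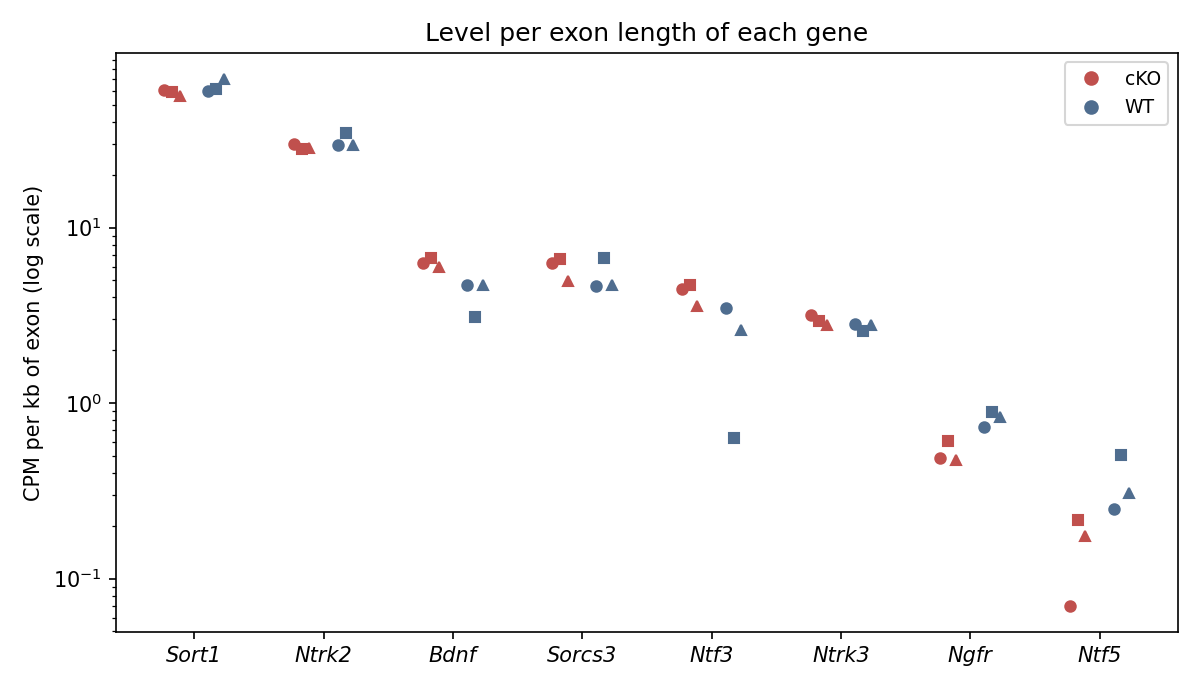
CPM per kilobase of exon for each gene (vertical log axis), with 1 symbol per library, cKO in red left of WT in blue (circle, square and triangle for replicates 1 to 3). Sort1 and Ntrk2 lie highest, Ngfr and Ntf5 lowest, and WT replicate 2 of Ntf3 lies apart at 0.632 CPM per kb.

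The wider pathway was read from 9 lists of 214 genes, the VPS10 receptors included, and 206 of the genes were tested. In all, 2 rose and 3 fell in cKO, against 1.05% higher and 0.463% lower among all genes tested, and the median log2 fold change was 0.0022 over the lists and -0.0042 over all genes. The groups did not overlap in 59 of the 206, or 28.6%, near the 27.0% among all genes tested. All 5 calls were lost without any 1 of cKO replicates 1, 2 and 3 and WT replicates 1 and 3. Without WT replicate 2, Nfkb1 and Rps6ka3 kept their call, and with the striatal covariate none did. The log2 fold changes with that covariate were -0.78 for Islr2, -0.45 for Rapgef1, -1.19 for Nrtn, 1.65 for Rps6ka3 and 0.63 for Nfkb1, each in the direction found without it.

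Upstream of the receptors, genes for processing and release of neurotrophins did not pass: of 19 tested, 10 had positive and 9 negative log2 fold changes (median 0.01). The smallest p in this list belonged to Pcsk5 and Pcsk7, proprotein convertases, and to Serpini1, neuroserpin, an inhibitor of tissue plasminogen activator. Pcsk5 averaged 13.9 ± 2.07 CPM in cKO and 9.43 ± 1.34 CPM in WT (log2 fold change 0.55, edgeR adjusted p = 0.132). Pcsk7 and Serpini1 had log2 fold changes of 0.28 and 0.40 (edgeR adjusted p = 0.163 and 0.190), and Serpini1 had 0.84 with the striatal covariate (edgeR adjusted p = 0.453).

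Of 31 tested regulators of Bdnf transcription, 22 had positive and 9 negative log2 fold changes (median 0.11), against 7335 and 7581 of all genes tested. This lean was not tested. The groups did not overlap in 10 of the 31 (32.3%), against 27.0% of all genes tested. Among the 31, 1 rose. Nfkb1, which encodes the p105 precursor of the NF-kB subunit p50, had 39.8, 41.0 and 41.2 CPM in cKO and 26.0, 25.4 and 27.3 CPM in WT. Both groups were narrow and far apart (log2 fold change 0.63, SE 0.07, edgeR adjusted p = 0.0178). Its log2 fold change was 0.61 to 0.66 when any 1 library was left out and 0.63 with the striatal covariate, where the adjusted p by edgeR was 0.453.

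Downstream of the Trk receptors, 2 of 32 tested adaptors and modulators fell and none rose (median -0.02). Islr2, a leucine-rich repeat protein that binds Trk receptors and is also called Linx, averaged 67.3 ± 11.3 CPM in cKO and 109.5 ± 4.17 CPM in WT (log2 fold change -0.71, SE 0.13, edgeR adjusted p = 0.0481). Rapgef1, an exchange factor that activates Rap1, averaged 113.5 ± 8.91 CPM in cKO and 158.7 ± 10.9 CPM in WT (log2 fold change -0.48, SE 0.09, edgeR adjusted p = 0.0497). In the Ras-MAPK cascade 1 of 20 rose and none fell (median 0.02). Rps6ka3, the kinase RSK2 downstream of ERK, averaged 98.4 ± 13.1 CPM in cKO and 47.5 ± 10.9 CPM in WT (log2 fold change 1.05, SE 0.18, edgeR adjusted p = 0.0458). Every cKO library lay above every WT library for Rps6ka3, and the reverse held for Islr2 and Rapgef1.

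In the PI3K-Akt-mTOR cascade none of 22 passed (12 positive, 10 negative, median 0.01). Rps6kb1, the ribosomal S6 kinase, had a log2 fold change of 0.32 and Akt1, a kinase downstream of PI3K, had -0.25 (edgeR adjusted p = 0.107 and 0.141). Among 27 partners of p75 none passed (15 positive, 12 negative, median 0.05). Ripk2, a kinase that binds p75, averaged 7.43 ± 1.66 CPM in cKO and 4.27 ± 0.03 CPM in WT (log2 fold change 0.79, edgeR adjusted p = 0.0942), and its adjusted p in the authors' deposited table was 0.0419. Map3k12, a kinase of the JNK route, and Zfp369, a zinc finger protein that binds p75, had log2 fold changes of 0.29 and 0.41 (edgeR adjusted p = 0.136 and 0.163).

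Genes known to follow BDNF-TrkB signalling had 15 negative and 6 positive log2 fold changes among 21 tested (median -0.18), and none passed. Over all genes tested, 7581 were negative and 7335 positive, and the lean of the list was not tested. Spry1, a feedback inhibitor of receptor tyrosine kinases, had 10.4 ± 0.37 CPM in cKO and 13.9 ± 0.50 CPM in WT (log2 fold change -0.42, edgeR adjusted p = 0.0905). Dusp1, a MAPK phosphatase, had -0.18 and Slc12a5, the neuronal chloride exporter KCC2, had 0.23 (edgeR adjusted p = 0.280 and 0.270). In 3 of these 21 genes (14.3%) the groups did not overlap, against 27.0% of all genes tested.

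Among 31 tested genes for other trophic factors and their receptors 1 fell and none rose (11 positive, 20 negative, median -0.09). Nrtn, neurturin, a ligand of the GDNF family, averaged 4.10 ± 0.72 CPM in cKO and 8.33 ± 0.81 CPM in WT (log2 fold change -1.02, SE 0.18, edgeR adjusted p = 0.0475).

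**Figure D5:**
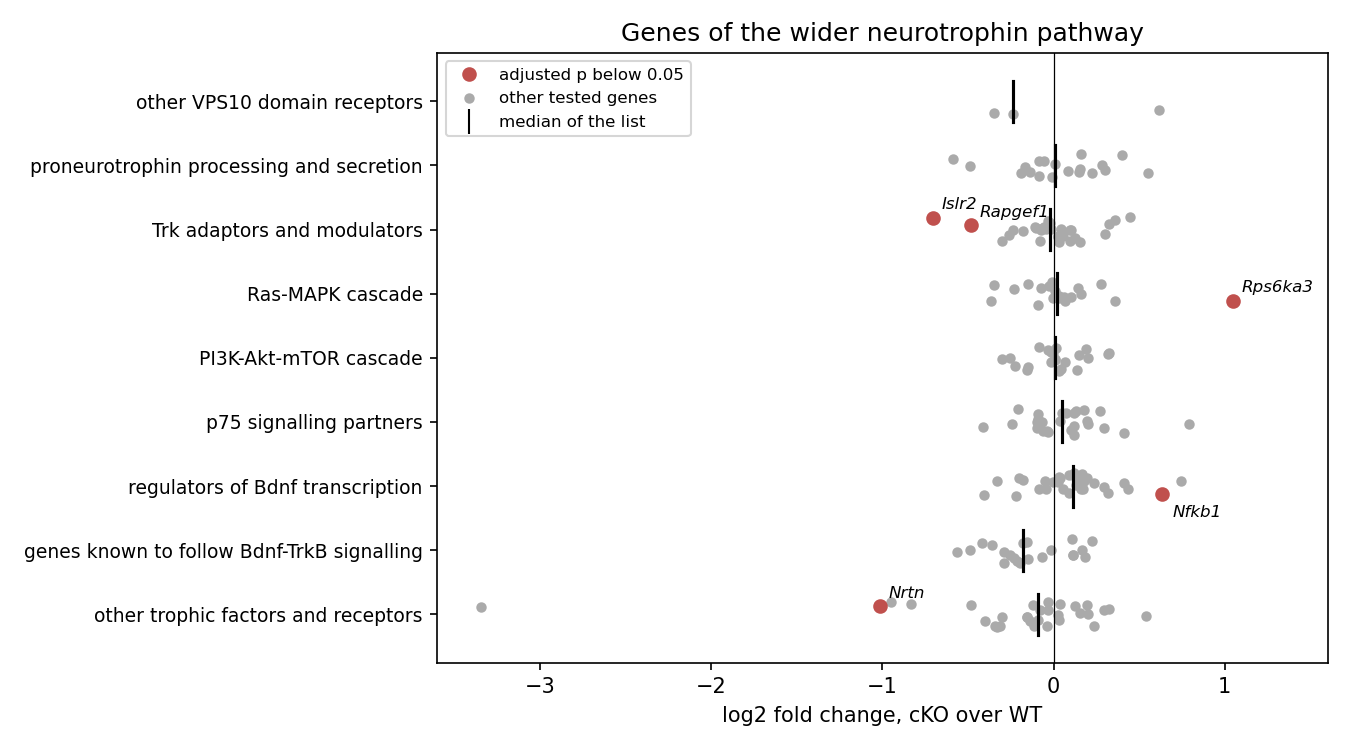
Log2 fold change of cKO over WT (horizontal axis) for every tested gene of 9 pathway lists, with genes past the edgeR threshold in red and the list median as a black bar. The 5 called genes are Islr2, Rapgef1, Nrtn, Rps6ka3 and Nfkb1, and the medians lie between -0.24 and 0.11; the point at -3.34 is Gdnf, with an edgeR adjusted p of 0.120.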

How the data were processed

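Hippocampal RNA was sequenced in 6 libraries, 3 per genotype. The authors deposited 1 table with raw whole-number read counts per gene symbol. Beside them stand normalised counts, a signal equal to the count times a factor per library, per the file headers. The deposited table also holds the authors' own test of cKO over WT, as log2 fold changes with raw and adjusted p-values. Cutadapt, TopHat2 2.0.10, HTSeq 0.6.1p1, DESeq2 1.6.3 and build mm10 are listed in the submitters' processing notes, while strand handling and annotation are not given in the sources used here.

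Deposited counts were tested with edgeR 4.0.16 (R 4.3.3, quasi-likelihood test, expression filter with a minimum count of 10, TMM, Benjamini-Hochberg adjustment over 14916 genes, threshold 0.05), without a block. CPM are counts scaled by TMM library size. Each SE was derived from the log2 fold change and F value of that fit, and 95% intervals from the SE. DESeq2 1.42.0, limma-voom (limma 3.58.1), other scalings and filters, a replicate block, a striatal covariate and left-out libraries were alternatives. The scripts were tested on simulated data. Positions and promoters came from RefSeq GRCm38.p6, the assembly of mm10, and lengths from GENCODE M21. The smallest chi-square statistic between libraries was 9.29 per degree of freedom, so none was a copy.

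The genes and lists were chosen with earlier results of these data known. Named are the members, the VPS10 family, the called genes of each list or else the 3 with the smallest p, and the 5 genes most like Bdnf (Pearson correlation of log2 CPM, mean of at least 1 CPM). Prox1, Dsp, C1ql2, Wfs1, Fibcd1, Spink8, Slc1a2, Chat, Lhx8, Gbx1 and Gdnf were named after their values were seen. Some genes of the family and of the lists are not reported here.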

Additional observations from a re-analysis of the deposited data

How the results depend on the processing

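Of 119 estimates for the 8 genes under other settings, 114 kept their direction and their side of the threshold. DESeq2 moved Bdnf past it (log2 fold change 0.59, adjusted p = 0.0235). The striatal covariate turned Ntf3 (-0.49), Ntf5 (0.38), Ntrk2 (0.032), Ntrk3 (-0.070), Sorcs1 (0.56) and Slc12a5 (-0.060). The cause was not tested. Sorcs1 also turned without WT replicate 2 (-0.40 to 0.038 over left-out libraries) and without WT replicate 2 and cKO replicate 1 together (0.074). Called were 225 genes in all, 0 of the 8 genes and 5 pathway genes. These counts were 871, 1 and 13 with DESeq2, 0, 0 and 0 with the striatal covariate, 111, 0 and 3 without WT replicate 2 and cKO replicate 1, and 12 to 147, 0 and 0 to 3 when any 1 library was left out. Fewer libraries were tested there. Ntf5 was not tested with a minimum mean of 1 CPM.

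Replicate numbers are shared by both genotypes, but the labels give no litter, batch or day, so the numbers were not taken as pairs. Deviations from the group means correlated at 0.22, 0.43 and 0.08 for numbers 1 to 3. For cKO replicates 1 and 2 the WT library of the same number correlated best, while cKO replicate 3 correlated best with WT replicate 1 (0.19). Whether the numbers mark pairs is thus not settled. With the replicate block edgeR called 185 genes, 0 of the 8 and 3 pathway genes, of which 2 (Nfkb1 and Rps6ka3) were among the 5. The adjusted p by edgeR was then 0.0611 for Islr2, 0.0732 for Rapgef1 and 0.0559 for Nrtn. Ntf5 had 3 to 21 reads per library, where counting error is large. Its part in the difference in Ntf5 was not tested.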

Other observations

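The 5 genes whose log2 CPM followed Bdnf most closely over the 6 libraries, among 14253 ranked, were Gpc3, 9830166K06Rik, Akap13, Egfl6 and Rwdd3, with Pearson correlations of 0.993 to 0.997. Gpc3, a glypican, had 8.38, 8.86 and 8.17 CPM in cKO and 5.36, 2.80 and 5.63 CPM in WT. Akap13, an A-kinase anchor protein, had 79.9, 83.8 and 73.7 CPM in cKO and 57.5, 40.8 and 56.3 CPM in WT. All 5 shared the low level in WT replicate 2 and non-overlapping groups, a likeness that follows from choosing them by their correlation with Bdnf. None of the 5 was called by edgeR (adjusted p of 0.0761 to 0.145). The correlations rest on 6 libraries in 2 genotypes and are a description.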
